A study of Mus musculus with 12 samples.

Results

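The mouse precursors mmu-mir-374b, mmu-mir-374c and mmu-mir-421 (mir-374b, mir-374c and mir-421 from here on) are 3 microRNA hairpins that lie side by side on the X chromosome. Their reads were taken as every listed tag, a distinct read sequence of 1 library, that the deposited tables assign to 1 of these 3 precursors. This gave 882 of 482403 tag entries and 3 of 1532 precursors. The tags held 22979 of 62878432 reads over 12 libraries, each tag counted once by its undivided reads. The members were chosen by their levels: the difference of miR-374b-5p between the study groups was already known from these data, so its levels are described here without a test. Tests were made on read ends, lengths and base differences. These measures did not pick miR-374b-5p, but they use the same reads as its level and are not fully independent of it.

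The small RNA libraries came from retinas of db/db mice. These animals are obese and diabetic because their leptin receptor is defective. There were 6 libraries of db/db mice given KeLuoXin Capsule, an herbal preparation (labelled Keluoxin-treatment, here Keluoxin), and 6 libraries of db/db mice labelled model. Both groups carry db/db, and no non-diabetic mouse was analysed here. The strain is given as C57BL/KsJ-db/db, with a number before BL that differs from library to library. Dose, duration, age, sex and what the model mice received are not given. Retina is the tissue given, although the protocol names an exosome pellet as the source of the RNA. The design text names 6 replicates without saying that each is a separate mouse, so the spread between libraries may be partly technical.

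A microRNA hairpin is cut into a duplex whose strands, the 5p and 3p arms, can each be loaded into an Argonaute protein. Bases 2 to 8 of the loaded strand, the seed, do most of the pairing with target mRNAs, so a shift of the 5′ end changes the targets while a change at the 3′ end leaves the seed as it was. The 3 hairpins lie within the span of Ftx, a long noncoding RNA gene of the X-inactivation centre, with mir-374c on the opposite strand. Hairpins within 1 host transcript can be released from the same primary RNA, and the amounts of their mature strands may still differ.

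On GRCm38.p6, RefSeq places mir-374b at chrX:103573060-103573154 and mir-421 at chrX:103572921-103572996, both on the minus strand, with 63 bases between them. The mir-374c hairpin lies at chrX:103573085-103573133 on the plus strand, inside mir-374b. Ftx runs on the minus strand at chrX:103560907-103623790 in the GENCODE annotation of that build, so mir-374b and mir-421 share its strand and mir-374c opposes it. Of 12 annotated Ftx transcripts, 8 spanned the hairpins by position and 0 had an exon there. This makes mir-374b and mir-421 intronic in those 8 transcripts, while mir-374c lies opposite the intron on the other strand. The hairpins in the deposited tables matched the RefSeq letters over their whole length. They are shown because the reads cover only part of them, and capitals mark the commonest exact read of each arm:
mir-374b: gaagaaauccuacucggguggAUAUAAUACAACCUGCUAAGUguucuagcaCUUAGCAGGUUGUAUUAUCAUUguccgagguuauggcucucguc
mir-374c: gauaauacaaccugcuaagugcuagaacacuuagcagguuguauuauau
mir-421: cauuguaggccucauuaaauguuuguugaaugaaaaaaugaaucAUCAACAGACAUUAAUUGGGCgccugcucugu

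The mir-374c hairpin is the reverse complement of bases 22 to 70 of mir-374b. Because that stretch folds back on itself, the same letters can be read from either strand, and the annotated miR-374c-5p equals miR-374b-5p without its first 2 bases. The mature sequences from RefSeq are shown with the seed in capitals, so that the shift between them can be seen, beside the commonest read of each arm from the deposited tables:
miR-374b-5p, RefSeq: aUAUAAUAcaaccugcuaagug
miR-374b-5p, commonest read: aTATAATAcaacctgctaagt
miR-374c-5p, RefSeq: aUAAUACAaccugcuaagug
miR-374b-3p, RefSeq: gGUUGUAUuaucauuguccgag
miR-374b-3p, commonest read: cTTAGCAGgttgtattatcatt
miR-374c-3p, RefSeq: aCUUAGCAgguuguauuau
miR-421-5p, RefSeq: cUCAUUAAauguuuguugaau
miR-421-3p, commonest read: aTCAACAGacattaattgggc
The commonest miR-374b-5p read had the same seed as the RefSeq form, while the commonest miR-374b-3p read had another seed than its RefSeq form. Among 1679 mature mouse names in the RefSeq table, 0 outside the locus had the seed of any of these sequences. That table held no mature miR-421-3p, so only its commonest read is shown, and the seed search covered only the names it held.

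No read was assigned to mir-374c alone. The tables listed 5 tags for mir-374c, in 5 libraries, and all 5 were listed for mir-374b as well, with the reads divided between the precursors. Together they held 11 reads, 0.0522% of the reads on mir-374b and mir-374c. The first of these sequences was seen in Keluoxin replicate 1 with 2 reads, Keluoxin replicate 4 with 3 reads and model replicate 2 with 2 reads. The other 2 were seen in 1 library each with 2 reads, Keluoxin replicate 6 (A9G) and model replicate 1 (A19T). Both changes are named against the mir-374c hairpin, with positions counted from the first base of the read. They are shown because they alone cannot be given to 1 precursor:
shared tag in 3 libraries: ataatacaacctgctaagt
shared tag in Keluoxin replicate 6: ataatacagcctgctaagt
shared tag in model replicate 1: cttagcaggttgtattatt
Reads are therefore given for miR-374b/c-5p and miR-374b/c-3p, with shared tags counted once. No tag of the locus was listed for a precursor elsewhere, and 625 of the 661 mir-374b entries carried a status letter R whose meaning is not given.

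Reads of the 5p arm of mir-374b began at 1 base. Of 20631 miR-374b/c-5p reads, 20614 (99.9%) started at hairpin base 22, where RefSeq starts miR-374b-5p, in all 12 libraries. At base 24, where miR-374c-5p starts, there were 9 reads in 4 libraries, 7 over the Keluoxin libraries and 2 over the model libraries. Nearly all reads thus had the annotated miR-374b-5p seed, and hardly any had the miR-374c-5p seed. The lowest share of reads at base 22 in any library was 99.7%, in Keluoxin replicate 6. The share averaged 99.9% ± 0.13 in Keluoxin and 99.98% ± 0.0493 in model libraries (SD, n = 6 each), and limma gave a difference of -0.0833 percentage points with a standard error of 0.0789 and an adjusted p of 0.706. For comparison, 3.49% of the 458 arms tested had a shifted start share.

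Reads of the 3p arm of mir-374b did not begin where RefSeq places them. Of 458 reads, 416 (90.8%) began at hairpin base 52, in all 12 libraries, and 38 began at base 53, in 9 libraries. RefSeq starts miR-374b-3p at base 59, and 0 reads began there. The letters of the annotated miR-374c-3p begin at base 51 of the mir-374b hairpin, 1 base before the commonest start, and 2 reads began there. The commonest 3p read had 370 reads and ran to base 73, past base 69 where those miR-374c-3p letters end.

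**Figure D1:**
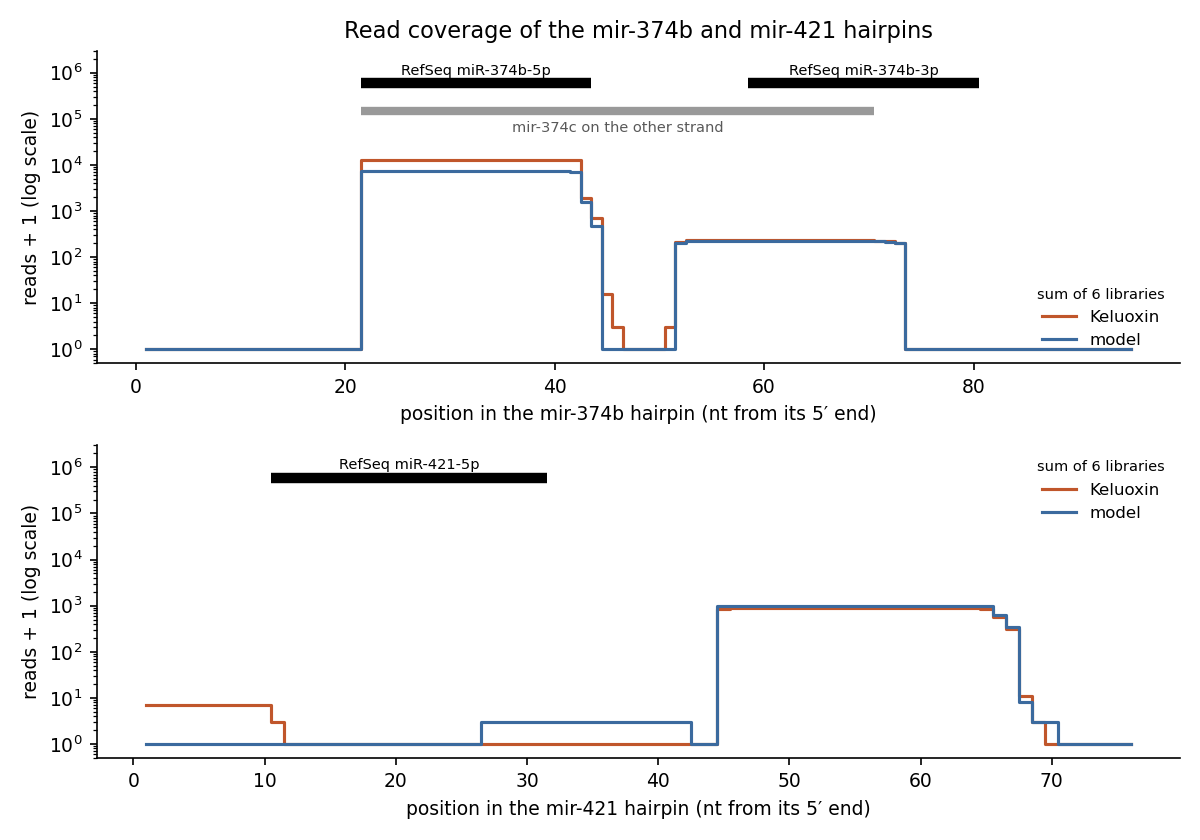
Reads covering each base of the mir-374b hairpin (top) and the mir-421 hairpin (bottom), summed over 6 Keluoxin and 6 model libraries, as reads + 1 on a log axis. Black bars mark RefSeq mature arms (the RefSeq table used held none for miR-421-3p) and the grey bar the stretch that mir-374c occupies on the other strand. The 5p reads of mir-374b begin at base 22, its 3p reads begin at base 52 rather than at 59, and nearly all mir-421 reads lie on its 3p side.

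On mir-421, 1813 of 1882 miR-421-3p reads (96.3%) started at hairpin base 45 and 63 reads at base 46. The share of reads at base 45 was 96.7% ± 1.88 in Keluoxin and 96.9% ± 2.12 in model libraries (SD, n = 6 each), with a limma adjusted p of 0.966. miR-421-5p was nearly unread. It had 8 reads in all, 2 in each of Keluoxin replicates 1, 4 and 6 and 2 in model replicate 4, and 0 of them began at its RefSeq start. It did not pass the filter on low counts, and the other 3 arms passed.

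miR-374b/c-5p was the main product of the locus. It had 2228, 1587, 2766, 4100, 518 and 1880 reads in Keluoxin libraries 1 to 6, and 949, 1655, 1879, 1129, 1051 and 889 reads in model libraries 1 to 6. As CPM, with library sizes scaled by the trimmed mean of M-values (TMM), this was 452, 333, 469, 540, 272.4 and 349 CPM in the Keluoxin libraries. In the model libraries it was 223.3, 272.7, 257, 195, 190.0 and 253 CPM. The Keluoxin libraries all lay above the model libraries except replicate 5, the shallowest, which stood just under model replicate 2. The means were 403 ± 100 CPM in Keluoxin and 232 ± 34.5 CPM in model libraries (SD, n = 6 each), a log2 fold change of 0.80 with a standard error of 0.17, or 1.74-fold. This difference is what the locus was picked for. Over the whole table, 136 of 802 arms (17%) were called by edgeR's quasi-likelihood test at an adjusted p of 0.05, 73 of them (9.1%) higher in Keluoxin, and 3.37% of arms had every Keluoxin library above every model library.

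The log2 fold change of miR-374b/c-5p stayed above 0 under each scaling tried. It was 0.77 with relative log expression, 0.54 with upper-quartile and 1.01 with total-read scaling, and the median over all arms tested was 0.03 with TMM, 0.00 with relative log expression, -0.23 with upper-quartile and 0.23 with total-read scaling. With 1 library left out at a time it lay between 0.68 and 0.90. In libraries of bulk tissue, more cells that make a microRNA and more microRNA per cell cannot be told apart.

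miR-421-3p, from the neighbouring hairpin, differed between the groups by less than the spread of the Keluoxin libraries. It had 41 to 264 reads in each Keluoxin library and at least 99 reads in each model library. Its levels were 26.4, 24.8, 36.3, 34.8, 21.6 and 22.1 CPM in Keluoxin libraries and 29.9, 35.1, 30.5, 29.7, 29.3 and 28.2 CPM in model libraries. The Keluoxin libraries spread on both sides of the model libraries. The means were 27.7 ± 6.37 CPM in Keluoxin and 30.4 ± 2.41 CPM in model libraries (SD, n = 6 each). The log2 fold change was -0.14 with a standard error of 0.16, and its sign turned with total-read scaling, to 0.07.

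miR-374b/c-3p, the partner strand of miR-374b-5p, was the rarest of the 3 measured arms. It had 34, 47, 53, 50, 10 and 42 reads in Keluoxin libraries 1 to 6 and 27, 46, 62, 42, 33 and 12 reads in model libraries 1 to 6. Levels ran from 5.26 to 9.86 CPM with a median of 7.35 in Keluoxin libraries, and from 3.42 to 8.49 CPM with a median of 6.80 in model libraries. The groups overlapped over most of this range. The log2 fold change was 0.22 with a standard error of 0.24, and it was -0.05 with upper-quartile scaling.

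**Figure D2:**
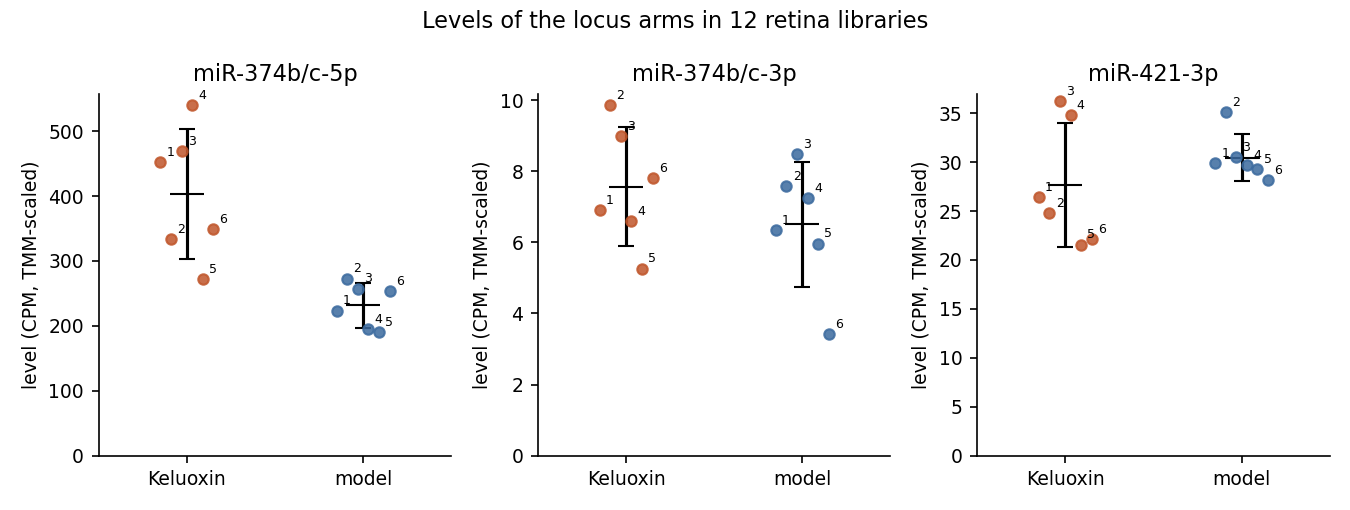
Levels of the 3 arms that passed the filter (CPM, TMM-scaled), 1 point per library with its replicate number, and the mean ± SD of 6 libraries. miR-374b/c-5p averages 403 CPM in Keluoxin and 232 CPM in model libraries, and the groups of the other arms overlap.

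Ratios within a library do not depend on how libraries are scaled to each other. There were 17.1, 13.5, 12.9, 15.5, 12.6 and 15.8 miR-374b/c-5p reads per miR-421-3p read in Keluoxin libraries 1 to 6. In model libraries 1 to 6 there were 7.47, 7.77, 8.43, 6.56, 6.49 and 8.98. The groups did not overlap, with means of 14.6 ± 1.83 in Keluoxin and 7.62 ± 0.994 in model libraries (SD, n = 6 each). Both numbers in this ratio come from the contrast that picked the locus, so it is a description. The share of other arm pairs whose ratio also did not overlap was not counted. Keluoxin replicate 5, whose CPM fell within the model range, had a ratio above every model library. That ratio rests on 518 and 41 reads and is part of the same description.

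The ratio of the 2 strands of mir-374b holds the same miR-374b/c-5p reads and is likewise a description. There were 33.8 to 82.0 miR-374b/c-5p reads per miR-374b/c-3p read in Keluoxin libraries, with a median of 52.0, and 26.9 to 74.1 in model libraries, with a median of 33.5. Model replicate 6, with 12 reads of the 3p arm, had the highest model ratio, and Keluoxin replicate 2 the lowest Keluoxin ratio. On the log2 scale, with 0.5 added to each arm, the ratio averaged 5.70 ± 0.442 in Keluoxin and 5.17 ± 0.504 in model libraries (SD, n = 6 each). The difference was 0.529 with a standard error of 0.266, and it rests on 10 to 62 reads of the 3p arm per library. Over the whole table, limma called a shifted ratio for 14% of the 164 precursors tested.

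**Figure D3:**
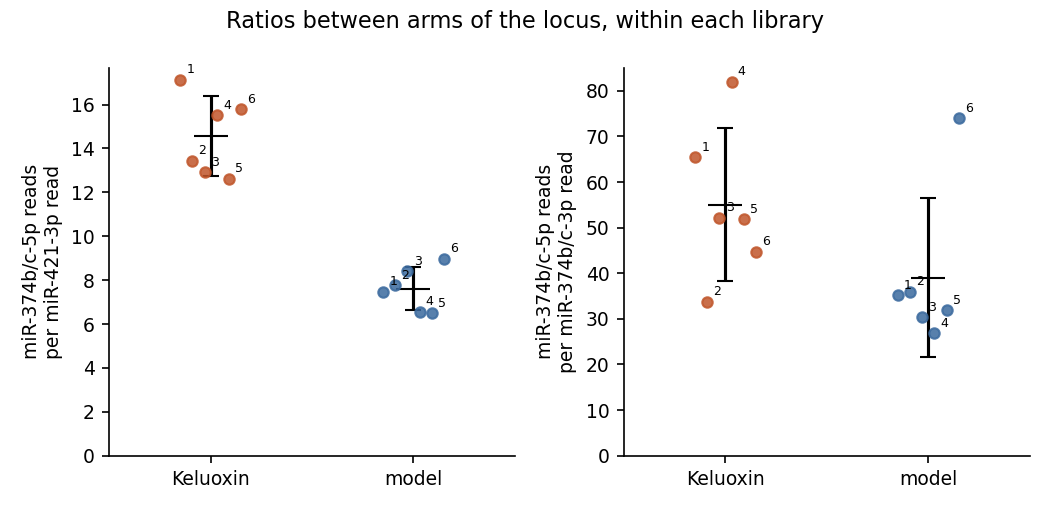
Reads of miR-374b/c-5p per read of miR-421-3p (left) and per read of miR-374b/c-3p (right), 1 point per library with its replicate number, and the mean ± SD of 6 libraries. The first ratio runs from 12.6 to 17.1 in Keluoxin and from 6.49 to 8.98 in model libraries, and the second overlaps.

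The 3′ end of miR-374b/c-5p differed between the groups. The arm had 136 distinct tags, miR-421-3p 52 and miR-374b/c-3p 11. The commonest 5p forms differ only near the 3′ end and share 1 seed, so they are shown with a capital for a base that differs from the hairpin (positions counted from the first base of the read):
20 bases: atataatacaacctgctaag
21 bases: atataatacaacctgctaagt
22 bases, the RefSeq form: atataatacaacctgctaagtg
23 bases: atataatacaacctgctaagtgt
T21C: atataatacaacctgctaagC
T21G: atataatacaacctgctaagG
T21A: atataatacaacctgctaagA
G22A: atataatacaacctgctaagtA
18 bases: atataatacaacctgcta
The 21-base form held about the same share of the arm in both groups, 49.8% ± 3.30 in Keluoxin and 50.2% ± 2.06 in model libraries (SD, n = 6 each). The RefSeq form of 22 bases held from 4.56% to 5.86% in Keluoxin and from 8.10% to 11.8% in model libraries, with no overlap. This is a description, since the share of tags of other arms without overlap was not counted. The T21C form held 13.0% ± 1.66 in Keluoxin and 8.93% ± 2.49 in model libraries, and the T21G form 6.45% ± 1.75 and 3.99% ± 1.12 in the same order.

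Scaled to all reads of a library (RPM), the RefSeq form stood at 23.0 ± 6.77 in Keluoxin and 21.7 ± 4.62 in model libraries. The 21-base form stood at 221 ± 90.5 in Keluoxin and 109 ± 17.1 in model libraries (SD, n = 6 each). On this scale the 21-base form was higher in Keluoxin libraries, while the mean level of the 22-base RefSeq form differed by less than its SD. Total-read scaling gave the whole arm a log2 fold change of 1.01, against 0.80 with TMM. The median over all arms was 0.23 against 0.03 in the same order. Single forms were not scaled by TMM, and the 21-base form is part of the level that picked the arm. The 18-base form, which lacks the last 4 bases of the RefSeq form, held 1.13% ± 0.375 of the arm in Keluoxin and 2.63% ± 1.02 in model libraries, with overlap.

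Reads of 21 bases, with or without a difference, made up 79.9%, 79.9%, 79.3%, 82.5%, 78.8% and 79.5% of miR-374b/c-5p in Keluoxin libraries 1 to 6. In model libraries 1 to 6 they made up 74.0%, 68.9%, 70.4%, 74.0%, 70.6% and 74.7%. Every Keluoxin library lay above every model library. Over arms, the share of reads at an arm's commonest length was tested with limma, a measure added after these lengths had been seen. Reads of 21 bases also made up most of the level that picked miR-374b/c-5p, so its test is not independent of that choice. For miR-374b/c-5p the difference was 7.87 percentage points with a standard error of 1.39 and an adjusted p of 0.00196. Among 477 arms tested, 31.2% were called, 21.6% were higher in Keluoxin, 7.76% had every Keluoxin library above every model library, and the median difference was 1.78 points. Among reads with no base difference, the difference for miR-374b/c-5p was 8.98 points with an adjusted p of 0.00135. Reads of 22 bases made up 9.77% ± 0.903 in Keluoxin and 14.0% ± 1.12 in model libraries (SD, n = 6 each), with no overlap. This is a description, with no matching share over all arms counted.

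Mean length hid this difference, since the Keluoxin libraries had fewer reads both above and below 21 bases. It was 21.12 ± 0.0488 bases in Keluoxin and 21.11 ± 0.0671 bases in model libraries, with a limma adjusted p of 0.837. Of 477 arms, 7.97% had a shifted mean length. For miR-421-3p, reads of 21, 22 and 23 bases were nearly as common as each other, and the groups overlapped at each. Its share of 21-base reads was 34.8% ± 5.71 in Keluoxin and 34.6% ± 6.52 in model libraries, with an adjusted p of 0.972, and its mean length was 21.97 and 21.93 bases in the same order, with an adjusted p of 0.764.

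**Figure D4:**
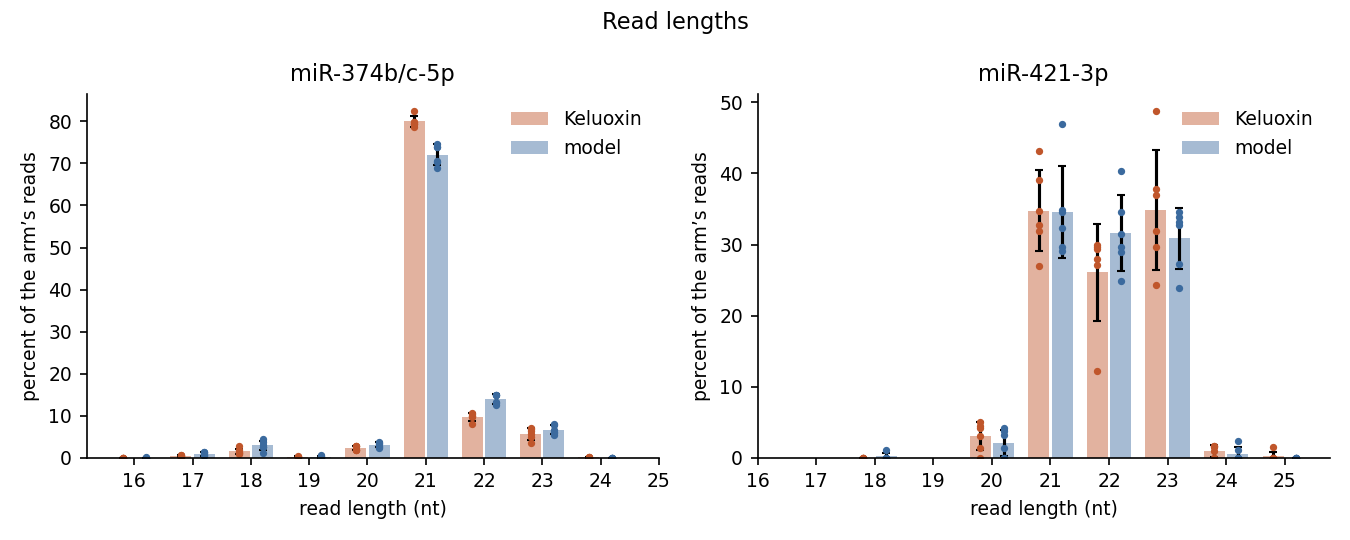
Percent of reads at each read length for miR-374b/c-5p (left) and miR-421-3p (right). Bars and error bars are the mean ± SD of 6 libraries and points are libraries. Reads of 21 bases made up 78.8% to 82.5% of miR-374b/c-5p in Keluoxin and 68.9% to 74.7% in model libraries, and the miR-421-3p bars overlap.

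Reads that differed from the hairpin by 1 base were commoner in Keluoxin libraries, for miR-374b/c-5p as for most arms. The tables list tags with at most 1 differing, inserted or deleted base. For miR-374b/c-5p such reads made up 41.9%, 42.0%, 35.6%, 35.1%, 36.3% and 40.6% in Keluoxin libraries 1 to 6. In model libraries 1 to 6 they made up 32.9%, 28.9%, 26.4%, 28.3%, 28.6% and 35.9%. The groups overlapped only through model replicate 6, which stood above the lowest 2 Keluoxin libraries. The difference was 8.41 percentage points with a standard error of 1.87 and a limma adjusted p of 0.00274. Across all arms, 56.9% of 473 were called and 53.9% were higher in Keluoxin, and the median difference over the other arms was 5.98 points.

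For miR-421-3p, reads with a difference were the larger part. They made up 63.1%, 69.5%, 62.6%, 59.5%, 56.1% and 54.6% in Keluoxin libraries 1 to 6, and 49.6%, 57.7%, 56.5%, 54.7%, 46.9% and 57.6% in model libraries 1 to 6. The groups overlapped. The difference was 7.06 points with a standard error of 2.73 and a limma adjusted p of 0.0442, which lost significance in 7 of 12 fits that left out 1 library (up to an adjusted p of 0.0960). miR-374b/c-3p had few such reads, in Keluoxin replicates 1 and 4 and model replicate 1 only. They made up 5.88%, 4.00% and 7.41% of 34, 50 and 27 reads. Tags have at least 2 reads, so rarer differing reads of this arm would be missing.

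Most differences stood at the last base of the read. Splitting them by position was added after the data had been seen. The last base differed in 30.5% ± 3.66 of miR-374b/c-5p reads in Keluoxin and 24.9% ± 3.10 in model libraries (limma adjusted p of 0.0501, with 22.9% of 468 arms called). It differed in 55.0% ± 5.74 of miR-421-3p reads in Keluoxin and 46.2% ± 3.88 in model libraries (adjusted p of 0.0360), a call lost in 9 of 12 fits that left out 1 library (up to an adjusted p of 0.0792). The second-last base differed in 2.15% to 3.35% of miR-374b/c-5p reads in Keluoxin and in 0.531% to 2.00% in model libraries, with no overlap. That difference was 1.66 points with a standard error of 0.331 and an adjusted p of 0.00154, and 52.2% of 454 arms were called, 28.2% without overlap and higher in Keluoxin. For miR-421-3p the same measure had an adjusted p of 0.197.

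The G20C form of miR-374b/c-5p is a tag of this kind, singled out after its values were seen:
G20C: atataatacaacctgctaaCt
It had 23, 18, 30, 23, 5 and 25 reads in Keluoxin libraries 1 to 6, and 4, 0, 0, 0, 5 and 3 reads in model libraries 1 to 6. As a share of the arm this was 0.561% to 1.33% in Keluoxin libraries and at most 0.476% in model libraries. This is a description, since the share of other tags that separate the groups was not counted. Second-last-base differences were called in 52.2% of 454 arms. Tags have at least 2 reads, so a library with 0 listed reads may hold a rarer form.

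Differences within the read were few and did not separate the groups. An inner base differed in 5.16% ± 2.47 of miR-374b/c-5p reads in Keluoxin and 4.06% ± 0.718 in model libraries (adjusted p of 0.460). For miR-421-3p it was 3.58% ± 3.05 in Keluoxin and 6.81% ± 3.46 in model libraries (adjusted p of 0.220), and 11.6% of 473 arms were called. A difference fell in the seed, bases 2 to 8, in 1.17% ± 0.671 of miR-374b/c-5p reads in Keluoxin and 1.17% ± 0.527 in model libraries (SD, n = 6 each). On miR-421-3p the main inner change was A-to-G at base 14 (A14G), outside the seed, with 79 reads in 11 libraries. It made up 3.02% ± 2.35 of the arm in Keluoxin and 4.73% ± 1.92 in model libraries.

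**Figure D5:**
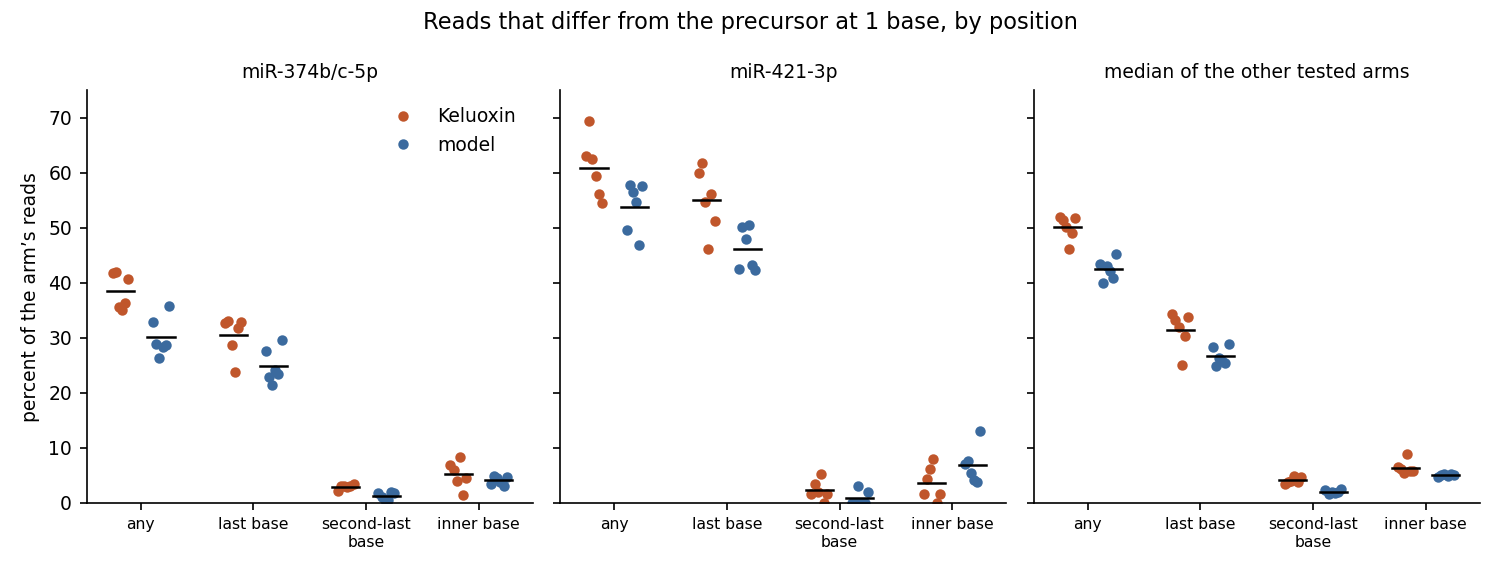
Percent of reads with 1 base that differs from the hairpin, in all and by position in the read, for miR-374b/c-5p, miR-421-3p and the median over the other tested arms. Points are libraries and lines are means of 6. Most differences stand at the last base. For any difference, the median over the other arms averages 50.1% in Keluoxin and 42.5% in model libraries. For miR-374b/c-5p the averages are 38.6% and 30.2% in the same order.

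The arms whose profile over the 12 libraries was nearest to miR-374b/c-5p were found by the root-mean-square distance of log2 CPM, each arm centred on its mean. Among 499 annotated arms compared, the nearest were let-7i-3p at 0.258, miR-181c-5p at 0.327, miR-22-3p at 0.331, miR-29c-3p at 0.335 and miR-338-3p at 0.337, and the median distance was 0.657. The arms of the same locus were farther away, miR-374b/c-3p at 0.502 and miR-421-3p at 0.496. These had 10 to 62 and 41 to 264 reads per library, against 518 to 4100 for miR-374b/c-5p. The part of low counts in the distance was not tested, and the distance uses the levels that picked miR-374b/c-5p. edgeR called miR-181c-5p (adjusted p of 0.0203) and miR-29c-3p (0.0309) higher in Keluoxin, but not let-7i-3p, miR-22-3p or miR-338-3p. miR-181c-5p averaged 156 ± 15.9 CPM in Keluoxin and 116 ± 11.0 CPM in model libraries, and let-7i-3p 14.4 ± 3.75 and 11.0 ± 2.00 CPM in the same order (SD, n = 6 each).

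By RefSeq, a chromosome was found for 975 of 997 annotated precursors, and 63 were on the X. Of 38 other X-linked arms tested, edgeR's quasi-likelihood test called 1 higher and 2 lower in Keluoxin at an adjusted p of 0.05, with a median log2 fold change of -0.03. The same test called 19 of 502 annotated arms higher and 47 lower, with a median of -0.13, and 17% of all 802 arms, with a median of 0.03. The 3 most abundant were let-7f-5p, with 26010 ± 6968 CPM in Keluoxin and 25300.0 ± 2984 CPM in model libraries, miR-532-5p, with 448.3 ± 73.3 and 539 ± 49.8 CPM in the same order, and miR-361-3p, with 316 ± 60.7 and 364 ± 37.2 CPM. Copies of let-7f on other chromosomes are counted in that arm. The 3 called arms, named because they are few, were miR-3473a-3p (log2 fold change 2.61), miR-504-5p (-0.58) and miR-676-5p (-1.33).

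The libraries held 1933375 (Keluoxin replicate 5) to 7892147 reads (model replicate 3). Retinal microRNAs were present in each. The summed level of miR-182, miR-183, miR-96, miR-124 and miR-9 arms ran from 269200 to 493900 CPM in Keluoxin and from 460800 to 540200 CPM in model libraries. Keluoxin replicate 4, which had the highest miR-374b/c-5p level, had the lowest retinal sum and the highest sum of 3 muscle microRNAs, 1881 CPM against 280.7 to 409 CPM in the other Keluoxin libraries and 295 to 435 CPM in model libraries. The erythroid sum of 3 ran from 52.2 to 717 CPM in Keluoxin and from 54.5 to 73.2 CPM in model libraries, and the leukocyte sum of 2 was at most 4.73 CPM in any library. The endothelial miR-126a-3p ran from 906 to 1219 CPM in Keluoxin and from 1426 to 1917 CPM in model libraries, without overlap. Liver miR-122-5p ran from 2.37 to 41.0 CPM in Keluoxin and from 1.18 to 4.94 CPM in model libraries. The part of these differences in the results above was not tested. Without Keluoxin replicate 4 the difference in 21-base reads of miR-374b/c-5p, the measure added after the lengths had been seen, was 7.37 points. Its limma adjusted p was 0.00314. That fit leaves the other libraries as they were, so it cannot tell what part tissue content has in the difference.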

How the data were processed

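Small RNA libraries of 6 Keluoxin and 6 model mouse retina samples were read from 1 deposited table per library. Each table lists tags with read counts per precursor, which the authors deposited divided between precursors that share a tag. Libraries were made with the NEBNext small RNA kit, per the labels' protocols. Bowtie, Novoalign, bcl2fastq and cutadapt are named without versions or roles in the submitters' processing notes, and genome build and microRNA release are not stated there. Tags have at least 2 reads, so rarer forms are missing, more so in shallow libraries.

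Reads were summed per arm (the side of the hairpin that holds the tag's midpoint), with hairpin copies of 1 microRNA joined. Levels were fitted with edgeR 4.0.16 over 802 arms (TMM, filterByExpr), and log2 CPM used a prior count of 2. Arm ratios, starts, lengths and base differences were fitted with limma 3.58.1. These fits took all arms that had 20 reads in every library (arm ratios 10 on each arm in 6 libraries). Both tools were used with Benjamini-Hochberg adjustment. DESeq2 1.42.0, other scalings and filters, left-out libraries and exact permutation tests were alternatives. The scripts were tested on simulated data. Members, lists and tests were chosen with earlier results of these data known. The arms, the 10 most abundant tags, the 5 nearest arms and the most abundant X-linked arms are named by rule.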

Additional observations from a re-analysis of the deposited data

Results flagged for a closer look

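In 52 groups of 6 values looked at, 10 had 1 library far from the other 5 by the gap to its neighbour over the range. The rule is set to flag about 1 in 20 groups of independent values without ties. Some of these groups hold tied values or use the same reads, so the 10 cannot be set against that rate. Model replicate 2 had the highest model level of miR-421-3p, 35.1 CPM, the shortest mean length of its reads, 21.69 bases, and the highest share of its reads at the commonest length, 46.95%. The same library had the lowest share of miR-374b/c-5p reads at the commonest start in the model group, 99.88%, and the other 5 had no read that started elsewhere. Keluoxin replicate 4 had the shortest mean length of miR-374b/c-5p in its group, 21.03 bases, and the highest share of 21-base reads, 82.49%. Keluoxin replicate 1 had the lowest share of miR-374b/c-5p reads with the second-last base different in its group, 2.154%. Model replicate 1 was the only model library with a listed base difference on miR-374b/c-3p, in 7.407% of its 27 reads, all at the last base. Model replicate 6 had the highest log2 ratio of miR-374b/c 5p to 3p reads in the model group, 6.153.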

How the results depend on the processing

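The count of arms called between Keluoxin and model libraries was 136 of 802. It was 67 with annotated precursors only, where 500 arms were tested, 213 without model replicate 1 and Keluoxin replicate 4 together, 233 with DESeq2, which tested 1290 arms, and 73 (without model replicate 4) to 238 (without model replicate 1) with 1 library left out. The split of higher and lower calls was 73 and 63 with TMM, 71 and 115 with upper-quartile scaling, and 89 and 25 with total-read scaling. The log2 fold change of miR-421-3p was -0.39 with upper-quartile scaling and -0.29 to -0.06 with 1 library left out, and that of miR-374b/c-3p was 0.10 to 0.31. Arm ratios gave 23 calls, 13 with the replicate number as a block and 10 to 27 with 1 library left out. Start shares gave 16 calls, 4 with the block and 6 to 25 with 1 library left out. Mean lengths gave 38 calls, 4 among reads with no difference and 14 to 75 with 1 library left out. Shares of reads with a difference gave 269 calls, and 250 to 283 with 1 library left out. Last-base differences gave 107 calls, 137 with the block and 55 (without model replicate 5) to 208 (without Keluoxin replicate 4) with 1 library left out. Inner-base differences gave 55 calls, 25 with the block and 18 (without model replicate 2) to 68 (without Keluoxin replicate 4). The cause of these changes was not tested.

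For miR-374b/c-5p, the 8.41-point difference in such reads was 7.66 to 9.55 points with 1 library left out, and a two-sided exact permutation test gave p = 0.00649 (0.0454 adjusted over 7 measures). Its smallest possible p is 0.00217. For miR-421-3p that exact test gave p = 0.0368 (0.129 adjusted). The last-base difference of miR-374b/c-5p passed with the block (0.0372), a minimum of 50 reads (0.0458) and without model replicate 1, model replicate 6 or Keluoxin replicate 4. That of miR-421-3p was lost with the block (0.0560) and without any 1 of 9 libraries. Where no test passed for miR-421-3p, the direction turned in some fits for start share, 21-base share and mean length. It held for second-last-base and inner-base differences. The start-share difference of miR-421-3p ran from -0.826 to 0.455 points, and was 0.0796 without model replicate 2, 0.108 without Keluoxin replicate 3 and 0.234 without Keluoxin replicate 4. Its 21-base share difference ran from -1.51 to 2.65 points, and was -0.911, -0.818 and -0.273 without model replicates 1, 3 and 6 and -0.677 without Keluoxin replicate 5. Mean length differences ran from -0.00161 to 0.0340 bases (miR-374b/c-5p) and from -0.00639 to 0.0913 bases (miR-421-3p), both lowest without model replicate 2.

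Equal replicate numbers do not pair the samples in the labels. Correlations of same-numbered libraries ran from 0.0373 to 0.233, and they were not always each other's best match. With the block, 134 arms were called and the log2 fold change of miR-374b/c-5p was 0.77.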
